A study of Mus musculus with 35 samples.

Results

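The cytosolic ribosomal protein genes are the nuclear genes that encode the protein components of the large (Rpl) and small (Rps) ribosomal subunits. They were taken as the protein-coding genes whose symbol is Rpl or Rps followed by a number, with an optional a, l, x or p suffix, together with Rplp0, Rplp1, Rplp2 and Rpsa and without the S6 kinases. The rule found 78 of the 21236 genes in the count table, 47 of the large subunit and 31 of the small subunit, spread over 19 chromosomes. The symbol rule leaves out Rps3a1 and 7 genes that encode ribosomal proteins under other names or copies of them (among them Rack1, Fau, Rpl36al, Rpl7l1, Rpl22l1 and Rps27rt). The 7 are counted as a set with the related gene lists, where values are given only for Rack1. No values are given for Rps3a1.

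Microglia, the resident macrophages of the brain, were sorted from the prefrontal cortex (PFC), striatum and midbrain of adult C57Bl/6J mice, and their mRNA was sequenced to ask how expression depends on brain region and sex. There were 12 mice, 6 of each sex, and 35 samples, 12 from the midbrain, 12 from the striatum and 11 from the PFC. Each region held 6 samples per sex except the male PFC, which held 5. All groups shared one genotype and one treatment. The mice carried Tmem119-2A-CreERT2 together with the reporter Ai14(RCL-tdTomato)-D and received tamoxifen, so the comparisons are between regions and between sexes within it. The reporter is switched on by a Cre recombinase under control of Tmem119, so the sorted tdTomato-positive cells are those that used this gene at the time of tamoxifen, and the cells of each sample are a bulk pool. Total counts ranged from 37680501 to 54131421 per sample. One column carries a PFC prefix in its name while its label says striatum (mouse 3, male). It was used by its label, and the numbers of members called by the study's rule are also given without it. Levels, and counts of mice between striatum and midbrain, include it, as do fold changes unless stated.

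The sorted cells carried the microglial identity that the labels give, with some RNA of other brain cells that differed by region. The summed level of 14 microglial markers (among them Tmem119, P2ry12 and Cx3cr1) was 46862 to 60090 CPM (counts scaled to a total of 1000000 per sample) in the 35 samples, with region means of 49836 in the midbrain, 55130 in the striatum and 53857 in the PFC. The 15 neuronal markers summed to 9.43 ± 1.66 CPM in the midbrain, 17.2 ± 4.24 in the striatum and 26.2 ± 9.05 in the PFC (mean ± SD, n = 12, 12 and 11), and 8 of them (Gad1, Gad2, Grin1, Map2, Slc17a7, Syt1, Th and Tubb3) were at 0 in at least one sample. The 10 astrocyte markers summed to 253 ± 21.1, 405 ± 76.2 and 378 ± 98.1 CPM in the same order, with Aqp4, Gfap and Sox9 at 0 in at least one sample. The 10 oligodendrocyte-lineage markers summed to 402 ± 61.4, 482 ± 151 and 338 ± 96.9 CPM, with Cspg4, Mog, Olig2 and Pdgfra at 0 somewhere. The 9 endothelial and mural markers summed to 29.01 ± 8.94, 39.3 ± 13.7 and 32.8 ± 7.20 CPM, with 7 of the 9 at 0 somewhere. Markers of border macrophages and monocytes were lowest, at 8.07 ± 7.88, 7.86 ± 1.73 and 12.9 ± 7.69 CPM.

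Each ribosome is built from one copy of nearly every one of these proteins, together with ribosomal RNA, and cells tune the supply of the proteins largely at the step of translation. The mRNAs of ribosomal proteins and of many translation factors are known for a 5′ terminal oligopyrimidine (TOP) tract, a cytosine at the first base followed by a run of C and T, through which the mTOR kinase, acting on Larp1 and the eIF4E-binding proteins, controls whether they are translated. Levels of mRNA, the quantity measured here, therefore say nothing directly about how much ribosomal protein was made.

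Sequence around the annotated start sites was read from RefSeq promoter windows (assembly GRCm38.p6) to show this tract in a few members, picked as examples. The 30 bases below run from 20 bases before to 10 bases after the first transcribed base, 5′ to 3′ on the strand of the gene, and the capitals mark an uninterrupted pyrimidine run that begins with C at the annotated first base. Rps6 (chr4:86857358-86857387, minus strand) and Rpl15 (chr14:18270977-18271006, minus strand) were the members with the smallest p between striatum and PFC in the fit with region and sex. Rpl35 (chr2:39005122-39005151, minus strand), chosen after its values were seen, is another example with a run, and Rplp0 (chr5:115559447-115559476, plus strand) is one with none at the annotated base.
Rps6: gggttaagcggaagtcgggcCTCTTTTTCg
Rpl15: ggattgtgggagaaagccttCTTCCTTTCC
Rpl35: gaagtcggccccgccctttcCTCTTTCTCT
Rplp0: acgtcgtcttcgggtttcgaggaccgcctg

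The run counted, on the strand of the gene only, was a C at the annotated first base followed by at least 4 bases that were each C or T. RefSeq windows were found for 58 members, and 13 of them (22.4%) had such a run, against 2.97% of the 26967 other genes with a window. When the run was allowed to begin within 5 bases of the annotated start, it was found in 28 members (48.3%) and 21.1% of other genes. In the fit with region and sex, the median log2 fold change of striatum over PFC was -0.224 in these 28 members. It was -0.216 in the 30 members whose windows lacked the run. The run is 9 bases long in Rps6, 13 in Rpl15 and 11 in Rpl35, counted beyond the printed window where it goes on. Annotated starts can lie a few bases from those used in microglia, so a window without the run does not show that the mRNA lacks it.

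All 78 members were detected in every sample. The lowest single count was 11, for Rpl39l, and no member had a 0. Together the members took 0.698% to 1.65% of a sample's counts (mean 1.02%), and the 5 most abundant made up 24.1% of their sum. Mean levels ran from 1.05 CPM for Rpl39l to 626 CPM for Rps3, a protein near the mRNA entry of the small subunit, which was named after its values were seen. The median member had 85.3 CPM, and 76 members had a mean of at least 8 CPM.

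CPM alone make no allowance for the length of a gene, so levels of different genes were also compared per length, as CPM per kb of annotated exon. On this scale the highest members included Rplp1 (479), a protein of the acidic stalk that recruits elongation factors, Rplp0 (298), the base of the stalk, and Rps29 (296) of the small subunit. Rplp2, the partner of Rplp1 in the stalk, stood at 57.9 CPM per kb. The lowest were Rps15a (8.88), Rpl24 (8.01), Rps12 (5.63), Rpl17 (3.72) and Rpl39l (1.26), the last a copy of Rpl39 that is best known from testis. Rpl39 itself stood at 47.9 CPM per kb. The median member had 47.3 CPM per kb, and the median over all genes with a length was 1.01. Exon length here joins the exons of every annotated transcript of a gene, so a gene with long rarely used exons is listed too low. The plot of levels per kb gives each member's mean and the range over its samples.

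**Figure D1:**
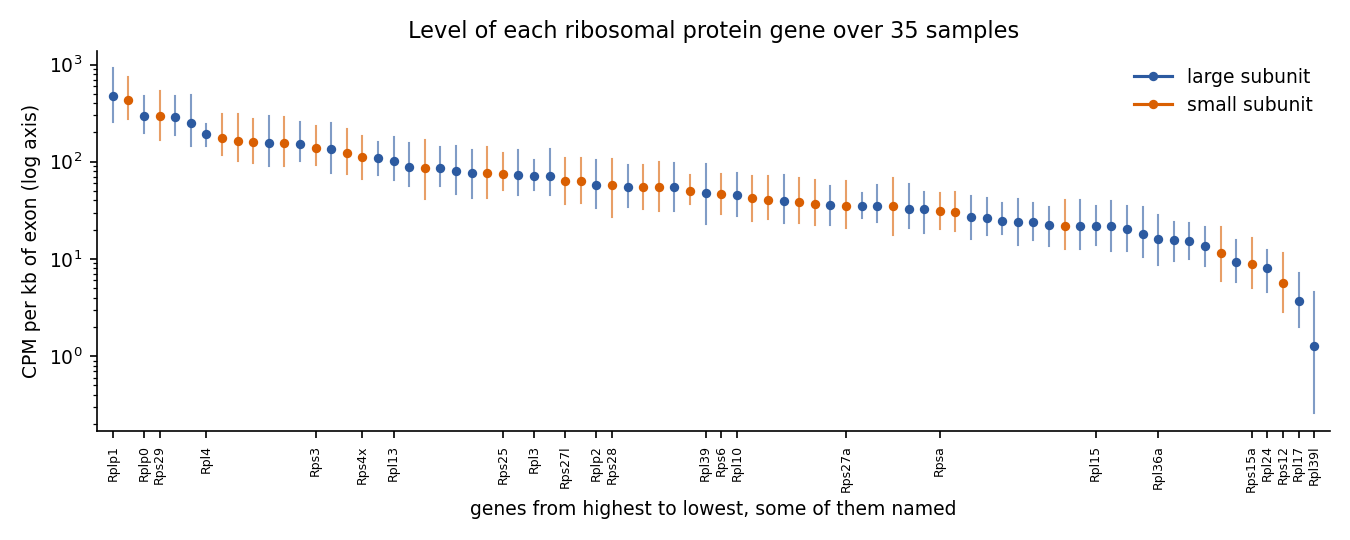
Mean CPM per kb of annotated exon (log axis) of each of the 78 ribosomal protein genes, ordered from highest to lowest with some of them named, with large subunit genes in blue and small subunit genes in orange; the vertical line is the range over 35 samples. Rplp1 stands highest at 479 and Rpl39l lowest at 1.26, and the 2 subunits are mixed along the order.

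Near-identical processed copies limit how exactly single members can be read. The table holds 203 genes named as ribosomal protein pseudogenes, and they took 4.56% to 5.30% of the counts of members and pseudogenes together. At least one such copy was present for 57 members, and in 23 members the copies took over 10% of the joint counts. The share was 64.9% for Rpl17, 31.3% for Rpl36a, 22.3% for Rps6, 22.1% for Rpsa, 19.5% for Rpl3, 15.2% for Rps15a, 15.1% for Rps27a and 10.9% for Rps25. How the counting dealt with reads that match several places is not given in the sources used here, so the levels of these genes are uncertain to an extent that these counts do not bound. The summed pseudogene level followed the same order of regions as the members, at 516 ± 139 CPM in the midbrain, 470 ± 110 in the striatum and 539 ± 140 in the PFC.

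The members rose and fell together from sample to sample, and most of their spread was between mice. The median correlation between 2 members over the 35 samples was 0.95 (3003 pairs), and 99.7% of the pairs were over 0.5. After the means of mouse and region were removed from each gene, the median was still 0.90. For 78 mitochondrial ribosomal protein genes, which build the separate ribosome of mitochondria, the same medians were 0.50 and 0.35, and for the 14 genes of the proteasome core they were 0.88 and 0.73. All these genes share the same libraries and the same scaling, so the correlations describe these samples and were given no test. The members least like the rest were Rpl39l (median r 0.58), Rpl4 (0.63), Rpl17 (0.81) and Rps27l (0.82), of which Rpl4 was named after its values were seen.

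Of the variance of log2 CPM in the median member, 72.1% lay between mice, 7.43% between regions and 21.99% in neither. Over 8623 genes with a mean of at least 8 CPM these medians were 48.6%, 8.71% and 37.99%. The share between mice was as large in the proteasome core (74.5%) and was 60.7% in the mitochondrial ribosomal protein genes, so it was not particular to the members. The coefficient of variation over samples was 12.7% to 79.1% in the members with a median of 28.1%, and the median of the 8623 genes was 16.02%. The ratio of the highest to the lowest sample was between 1.71 and 17.8, with a median of 2.84.

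The sum over the 78 members, on the CPM scale, was 7110 to 16134 in the midbrain (median 10237), 6657 to 13258 in the striatum (median 8855) and 6743 to 17117 in the PFC (median 10407). The regions overlapped over nearly their whole ranges. The means were 10471 ± 2812, 9363 ± 2120 and 10879 ± 2771 CPM (SD, n = 12, 12 and 11). These are shares of the sequenced mRNA, so that less of it per cell and fewer cells rich in it cannot be told apart in such bulk samples.

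Mice differed more than regions did. Averaged over its samples, mouse 5 (male) was highest at 14276 CPM, and mouse 8 (female) was lowest at 7287 CPM. The 6 mice numbered 1 to 6 had means of 10588 to 14276 CPM, and the 6 numbered 7 to 12 had means of 7287 to 10330 CPM, with no overlap. Sexes alternate with mouse number, so each set holds 3 males and 3 females. The labels do not say what, if anything, separates the 2 sets, and the split was known from earlier results of these data, so it is given as a description with no test. Over samples the sum was 12098 ± 2219 CPM in mice 1 to 6 (n = 17) and 8445 ± 1375 CPM in mice 7 to 12 (n = 18), a ratio of 1.43.

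The ratio between these 2 sets of mice was 1.39 for the large subunit and 1.49 for the small subunit. For named ribosomal protein pseudogenes it was 1.44, for the mitochondrially encoded genes 1.41, for the proteasome core 1.28, for other TOP mRNAs 1.25 and for mitochondrial ribosomal proteins 1.198. Microglial markers had a ratio of 1.04 and neuronal markers of 0.986, while astrocyte (0.826), oligodendrocyte (0.787) and endothelial (0.784) markers were lower in mice 1 to 6. The scarce markers of border macrophages and monocytes had the highest ratio, 1.51. The part of these in the difference was not tested.

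**Figure D2:**
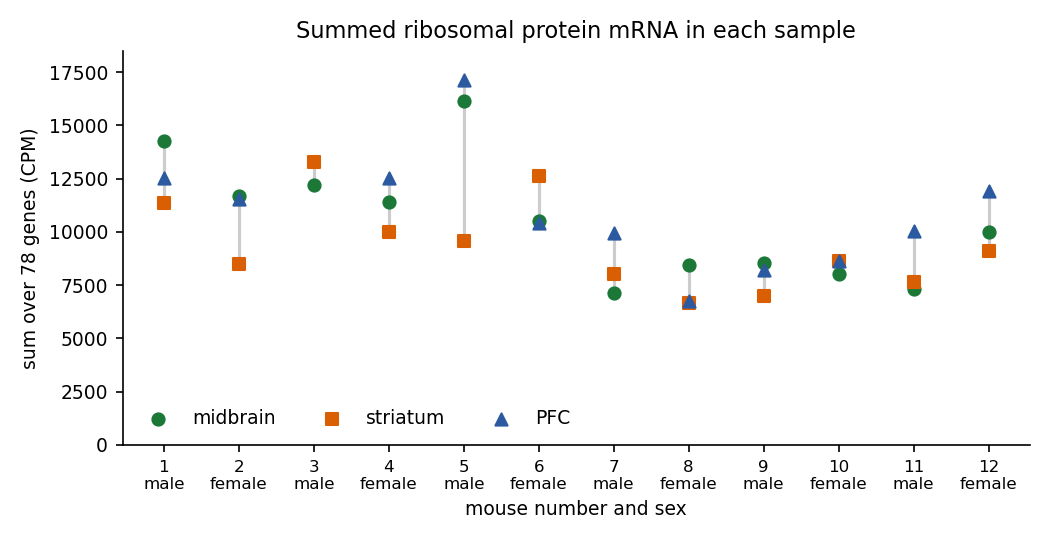
Sum of CPM over the 78 ribosomal protein genes in each of the 35 samples, by mouse number and sex; circles are midbrain, squares striatum and triangles PFC, and a grey line joins the samples of 1 mouse. Mice 1 to 6 have means of 10588 to 14276 CPM and mice 7 to 12 of 7287 to 10330 CPM, and the striatum lies below the PFC in 10 of the 11 mice with both samples. In mouse 10 the striatum (8626 CPM) and the PFC (8633 CPM) nearly coincide.

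The difference between the 2 sets of mice was graded by coding length. The difference of mean log2 CPM, mice 1 to 6 minus mice 7 to 12, had a median of 0.63 in the 26 members with a coding sequence of up to 400 nt, 0.55 in the 39 of over 400 to 700 nt, 0.40 in the 11 of over 700 to 1000 nt and 0.23 in the 2 of over 1000 nt. Those last 2 are Rpl3 (0.32), a protein near the peptidyl transferase centre, and Rpl4 (0.15), which lines the exit tunnel. At the other end, Rps28 (0.80), which was named after its values were seen, ran from 46.4 to 185 CPM over the samples, and Rpl39l (1.25 on the log2 scale) ran from 0.214 to 3.82 CPM. Over the 78 members Spearman's rho with coding length was -0.71 and Pearson's r was -0.72 (-0.70 for each without Rpl39l). Genes are not independent replicates, and all share the same libraries.

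Other protein-coding genes with a mean of at least 8 CPM showed the same gradient at a lower level. Their medians on the same log2 scale were 0.29 in 399 genes of up to 400 nt, 0.15 in 1111 of over 400 to 700 nt, 0.07 in 1224 of over 700 to 1000 nt, -0.04 in 3178 of over 1000 to 2000 nt and -0.19 in 2220 longer genes. In each class that holds members their median was the higher, a difference that was given no test, and the part of transcript length in it was not tested. The log2 ratio of striatum to PFC was less tied to coding length over the members (rho -0.25, r -0.17). In the other protein-coding genes its median rose with coding length, from -0.07 in those of up to 400 nt to 0.02 in those of over 2000 nt. The part of transcript length in the regional difference was not tested.

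**Figure D3:**
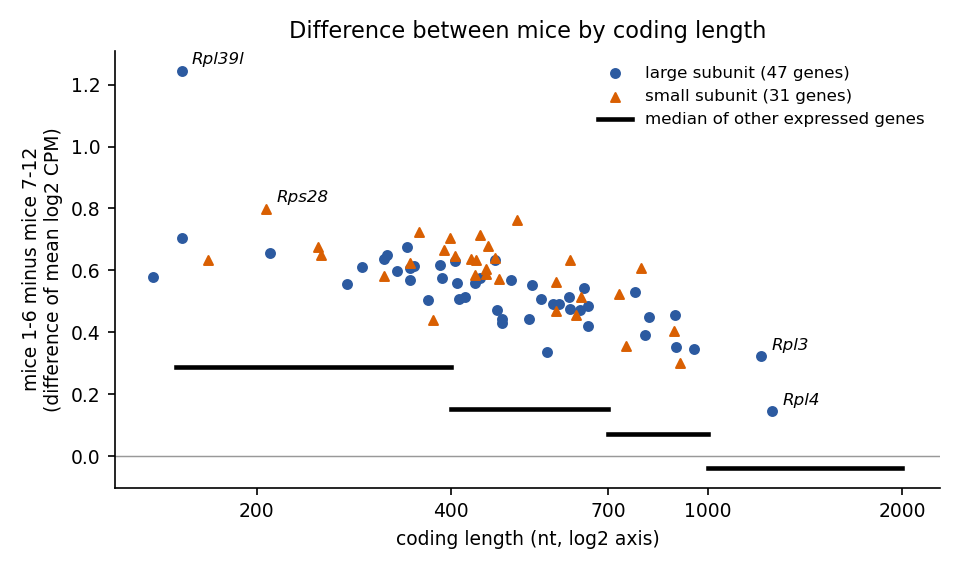
Difference of mean log2 CPM between mice 1 to 6 and mice 7 to 12 for each ribosomal protein gene against its coding length (log2 axis), circles for the large and triangles for the small subunit; black bars are the medians of other protein-coding genes with a mean of at least 8 CPM in 4 length classes. All 78 points lie above 0, from 0.15 for Rpl4 to 1.25 for Rpl39l.

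To ask whether region changed the members, the model of the study, with brain region and sex as main effects, was fitted to all genes with the quasi-likelihood test of edgeR and Benjamini-Hochberg adjustment. A gene had a main effect of region at an adjusted p under 0.05, and was then called differentially expressed between 2 regions at a post hoc p under 0.05 with a fold change over 1.2. These are the rules of the study. No member had a main effect of region, against 8.89% of all genes. The lowest adjusted p was 0.149 in edgeR and 0.130 in DESeq2, which also called 0 members. At an unadjusted p under 0.05 both tools picked 3 members (in edgeR Rplp0, Rps2 and Rps6), which is 3.85% of the members against 21.8% of all genes.

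Accordingly 0 of 78 members were called in each post hoc comparison, where 5.99% (PFC and midbrain), 6.47% (striatum and midbrain) and 3.14% (striatum and PFC) of all genes were called. At an unadjusted p under 0.05, edgeR picked 0 members between PFC and midbrain (17% of all genes; 0 members by DESeq2), 4 lower in striatum than midbrain (Rplp0, Rps2, Rps6 and Rpsa, 8.79% of all genes), and 7 lower in striatum than PFC (Rpl15, Rpl3, Rpl35, Rplp0, Rps2, Rps25 and Rps6, 4.68% of all genes). The differences were small. The median log2 fold change of striatum over PFC was -0.22 (range -0.31 to -0.08; 0.01 over all genes), with all 78 members below 0 against 48.5% of all genes. Striatum over midbrain had a median of -0.18 (range -0.28 to -0.01; 0.01 over all genes) and likewise 78 members below 0, against 48%. PFC over midbrain had a median of 0.04 (range -0.21 to 0.18; 0.01 over all genes), with 59 members above 0 against 52.1%. Because the members move together, their common sign counts as little more than one observation of each sample, and the comparisons share the samples of each region. The standard errors of striatum over PFC, from 0.08 to 0.43 with a median of 0.16, were of the size of the differences. With one mouse left out at a time, the median ran from -0.29 (without mouse 6) to -0.14 (without mouse 5) for striatum over PFC, from -0.25 (without mouse 6) to -0.11 (without mouse 5) for striatum over midbrain, and from 0.01 (without mouse 12) to 0.07 (without mouse 8) for PFC over midbrain.

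The 3 regions were taken from the same mice, so the fit was repeated with the mouse as a block instead of sex, which sets the differences between mice aside. This changed the calls. A main effect of region was then found in 18 members (23.1%, against 14.0% of all genes), among them Rpl3, Rpl5, Rpl6, Rpl7, Rpl8, Rpl13, Rpl13a, Rpl15, Rpl35, Rplp0, Rps2, Rps6, Rps9, Rps19, Rps25, Rps27l and Rpsa. This count rested on single mice, from 5 without mouse 2 to 42 without mouse 6 with a median of 10, so that with some mice left out the share of members was not above that of all genes. Rpl3, Rplp0, Rps6 and Rps27l were the 4 members called each time. The median log2 fold change was then -0.24 for striatum over PFC, -0.16 for striatum over midbrain and 0.08 for PFC over midbrain, while the median standard error of striatum over PFC fell to 0.09.

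Between striatum and PFC the block fit called 9 members by the study's rule, all lower in the striatum (11.5%, against 1.19% of all genes lower). They included Rpl8, Rpl13, Rpl15 and Rpl35 of the large subunit and Rps6, Rps9, Rps19 and Rps25 of the small subunit. At an adjusted p of the comparison itself under 0.05, with no minimum on the fold, 12 members were lower (15.4%, against 0.994% of all genes) and none was higher. The 12 called members had log2 fold changes of -0.32 to -0.22 (median -0.28) and a median standard error of 0.07, and the 66 not called had -0.32 to -0.06 (median -0.24) and 0.09. The called members were also longer (median coding length 692 nt against 441 nt) and more abundant (median 195 CPM against 76.04 CPM).

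The count depended on single mice. With one mouse left out at a time, the study's rule in the block fit called 1 (without mouse 5) to 41 members (without mouse 6), with a median of 5, and Rps6 was the 1 member called every time. Mouse 6 was the mouse in which the summed level was higher in striatum than PFC. With the adjusted p alone the count was 2 to 39, and Rplp0 and Rps6 were called each time. Without the striatum sample of mouse 3 the study's rule called 13 members.

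Rps6, the protein of the small subunit that S6 kinases phosphorylate (ENSMUSG00000028495, chr4:86854660-86857412 in GRCm38, minus strand), was lower in striatum than PFC in all 11 mice with both samples. Its level was 46 to 92.9 CPM in the striatum (median 64.2), 59.6 to 119 CPM in the PFC (median 78.5) and 61.2 to 99.5 CPM in the midbrain (median 76.1). The groups overlapped, and the means were 65.6 ± 13.4, 80.3 ± 16.3 and 76.4 ± 12.7 CPM. The log2 fold change of striatum over PFC was -0.30 (SE 0.11, edgeR adjusted p = 0.216) with sex in the model and -0.32 (SE 0.07, adjusted p = 0.00741) with the mouse block.

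Against the midbrain, Rps6 had a log2 fold change of -0.22 in the striatum (SE 0.10, adjusted p = 0.226) and of -0.23 (SE 0.06, adjusted p = 0.0182) with the block, lower in 9 of 12 mice. Of the joint counts of Rps6 and its pseudogenes, 22.3% fell on the copies, with 19.5% to 25.2% over samples.

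Rpl15, a core protein of the large subunit (ENSMUSG00000012405, chr14:18267823-18271391, minus strand), was 34.2 to 62.6 CPM in the striatum (median 46.1), 39.6 to 87.5 CPM in the PFC (median 59.1) and 40.2 to 75.9 CPM in the midbrain (median 56.1). It was lower in striatum than PFC in 9 of 11 mice. The log2 fold change was -0.31 (SE 0.13, edgeR adjusted p = 0.300), and -0.32 (SE 0.08, adjusted p = 0.0288) with the block.

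Rplp0, the scaffold of the stalk and a frequent reference gene in quantitative PCR (ENSMUSG00000067274, chr5:115559467-115563727, plus strand), was 331 to 593 CPM in the striatum (median 424), 389 to 793 CPM in the PFC (median 524) and 416 to 669 CPM in the midbrain (median 526). The striatal samples lay lower on the whole, within an overlap that took in most of each group. Striatum over PFC was -0.24 (SE 0.10, edgeR adjusted p = 0.321) and -0.26 (SE 0.06, adjusted p = 0.0167) with the block, lower in 9 of 11 mice. Striatum over midbrain was -0.24 (SE 0.10, adjusted p = 0.163) and -0.23 (SE 0.06, adjusted p = 0.00829) with the block, lower in 9 of 12 mice. Its stalk partners were not called, with block values of -0.17 for Rplp1 (adjusted p = 0.463) and -0.13 for Rplp2 (adjusted p = 0.541) between striatum and PFC.

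**Figure D4:**
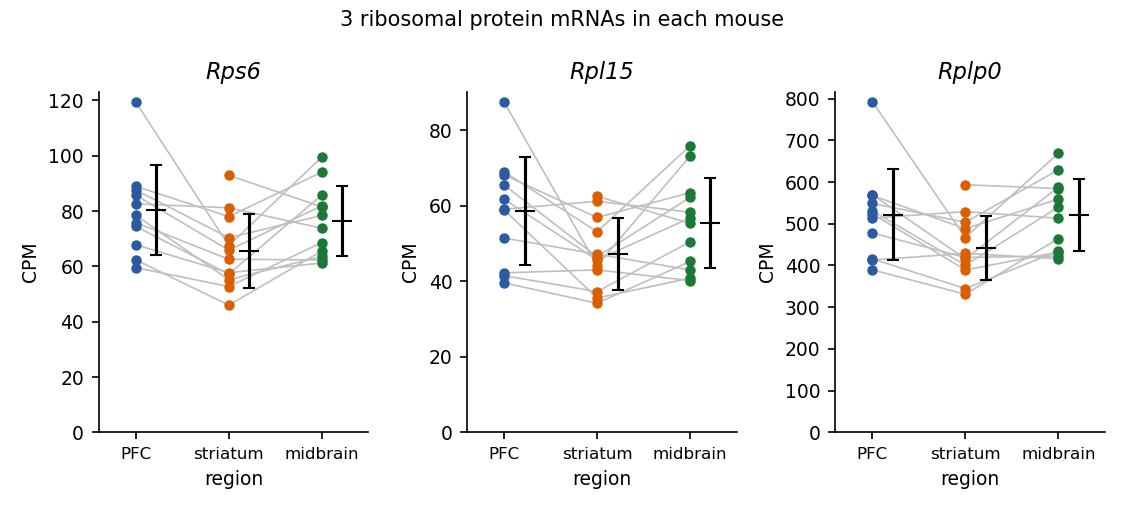
CPM of Rps6, Rpl15 and Rplp0 in each sample by region, with grey lines joining samples of 1 mouse and black bars giving mean ± SD (n = 11 PFC, 12 striatum and 12 midbrain samples). The striatal means of 65.6, 47.3 and 443 CPM lie below those of the PFC (80.3, 58.6 and 522 CPM), with wide overlap between the groups.

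Most other named members gave similar values between striatum and PFC in the block fit. Rpl13 was -0.30 (SE 0.07, edgeR adjusted p = 0.0248), and Rps25 was -0.27 (SE 0.08, adjusted p = 0.0484). Rps27a, which is made as a fusion with ubiquitin, was -0.26 and did not pass (adjusted p = 0.160). Rps29, one of the highest members per length, was -0.24 and did not pass either (adjusted p = 0.207). The lowest per length, Rps15a, Rpl24, Rps12 and Rpl17, lay at -0.22, -0.23, -0.21 and -0.24, and none was called. Rpl39l, the lowest of all, was -0.07 with a wide error (SE 0.31, adjusted p = 0.957).

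The summed level of the members showed the same relation within mice. The striatum was lower than the PFC in 10 of 11 mice, with a mean log2 ratio of -0.26 (SD 0.29, range -0.84 to 0.28), a ratio of 0.837. In mouse 10, one of the 10, the 2 values were nearly equal (8626 CPM in the striatum and 8633 in the PFC). The sums of the large and of the small subunit were each lower in 9 of 11 mice. Single members were lower in at least 8 of the 11 mice in 70 of 78 cases. The share of all genes was not computed for this count, and the members move together, so it adds little to the sum. The sum of other TOP mRNAs was likewise lower in 10 of 11 mice, with a mean log2 ratio of -0.23 (SD 0.16), so the difference was not particular to the members. Mitochondrial ribosomal proteins had a mean log2 ratio of -0.02 (SD 0.17) in the same mice, lower in 6 of 11, and the proteasome core -0.10 (SD 0.18), lower in 8 of 11. The sum over mitochondrially encoded genes was also lower in striatum than PFC in 9 of 11 mice (-0.20, SD 0.22). The markers of neurons (-0.63, SD 0.53) and of border macrophages and monocytes (-0.65, SD 0.65) were each lower in 9 of 11 mice as well, and those of the oligodendrocyte lineage were higher in 11 of 11 (0.50, SD 0.28). Astrocyte markers were higher in 5 and endothelial markers in 7 of 11. The part of border macrophages in the result was not tested. With a covariate built from the markers of neurons, astrocytes, oligodendrocytes and endothelium, the median log2 fold change of the members was -0.18, with 77 below 0. In mice 1 to 6 alone the median was -0.25, and in mice 7 to 12 alone it was -0.24, with 76 below 0. The share of all genes below 0 was not computed in these fits. The plot of fold changes sets the comparisons side by side.

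**Figure D5:**
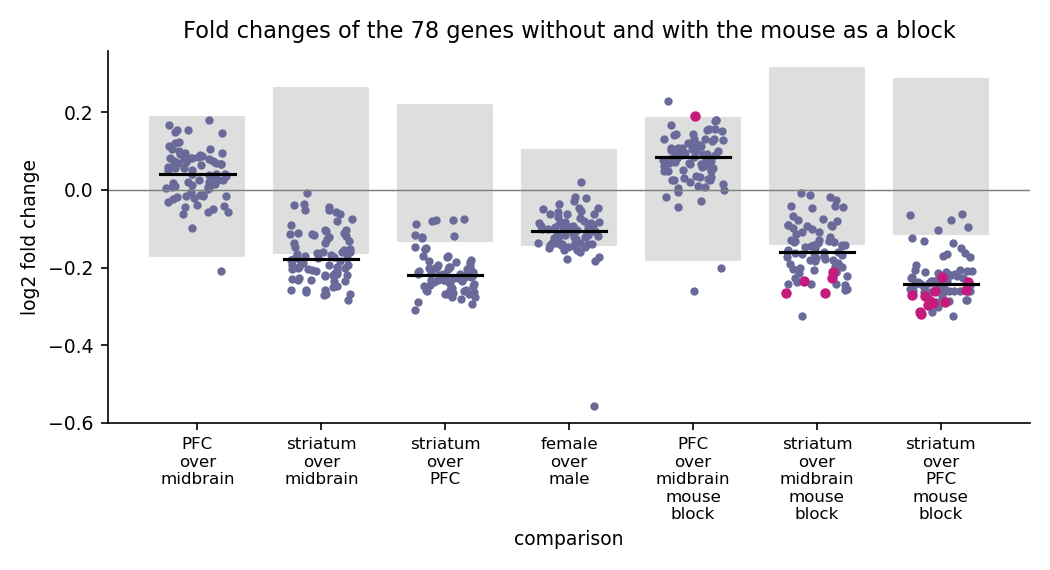
Log2 fold change of each of the 78 ribosomal protein genes in the 3 comparisons of regions and between the sexes, and in the 3 comparisons of regions with the mouse as a block; black lines are medians, grey boxes span the lower to the upper quartile of all 21236 genes, and members with an adjusted p under 0.05 are drawn in magenta. Called members appear only with the block, with 1, 5 and 12 in its 3 comparisons.

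Between striatum and midbrain, the block fit called 2 members by the study's rule, both lower in the striatum (2.56%, against 3.47% of all genes lower), so the share was not above that of all genes. They were Rpsa, the laminin receptor that is also a small subunit protein, and Rps27l, a copy of Rps27 known as a target of p53. With the adjusted p alone 5 members were lower, Rplp0, Rps2, Rps6, Rps27l and Rpsa (6.41%, against 5.02% of all genes). With one mouse left out at a time the study's rule called 0 (without mouse 2 or 5) to 15 (without mouse 6) and no member every time. With the adjusted p alone it was 3 to 21, and Rplp0, Rps27l and Rpsa were called each time. Without the striatum sample of mouse 3 the rule called 4.

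Rpsa (ENSMUSG00000032518, chr9:120127689-120132369, plus strand) was 63.9 to 132 CPM in the striatum (median 81.5), 80.0 to 147 CPM in the midbrain (median 106) and 74.9 to 149 CPM in the PFC (median 98.4). It was lower in striatum than midbrain in 11 of 12 mice. The log2 fold change was -0.27 (SE 0.12, edgeR adjusted p = 0.165) and -0.27 (SE 0.07, adjusted p = 0.0131) with the block.

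Rps27l (ENSMUSG00000036781, chr9:66946086-66949516, plus strand) was 34.2 to 72.6 CPM in the striatum (median 47.6), 34.5 to 88.1 CPM in the midbrain (median 55.7) and 30.3 to 81.4 CPM in the PFC (median 45.8). Its order of regions differed from that of most members, with the midbrain highest. Striatum over midbrain was -0.28 (SE 0.14, edgeR adjusted p = 0.261) and -0.27 (SE 0.07, adjusted p = 0.00843) with the block, lower in 11 of 12 mice. PFC over midbrain was -0.21 (SE 0.15, adjusted p = 0.535) and, in the block fit, -0.20 (adjusted p = 0.0693), lower in 10 of 11 mice. Between striatum and PFC it was -0.08, and -0.06 with the block (adjusted p = 0.728).

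The summed level was lower in striatum than midbrain in 7 of 12 mice (mean log2 ratio -0.15, SD 0.30), a spread larger than the mean. In mice 1 to 6 alone the median log2 fold change of the members was -0.25 and in mice 7 to 12 alone it was -0.06, with 61 below 0. With the covariate of other brain cells it was -0.10, with 75 below 0. Here too the share of all genes below 0 was not computed. The sum of other TOP mRNAs was lower in the striatum in 11 of 12 mice (-0.18, SD 0.19). That of the proteasome core was lower in 9 and that of mitochondrial ribosomal proteins in 6 of the 12. Mitochondrially encoded genes went the other way, higher in the striatum in 9 of 12 mice.

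Between PFC and midbrain, the study's rule called 0 members in the block fit as well, against 6.85% of all genes. With the adjusted p alone 1 member was higher, Rpl3 (1.28%, against 3.67% of all genes higher). With one mouse left out at a time this count was 0 to 2, and 0 without mouse 1, 2, 4, 11 or 12, so that no member was called each time. Rpl3 (ENSMUSG00000060036, chr15:80077791-80091868, minus strand) was 182 to 334 CPM in the PFC (median 250), 180 to 288 CPM in the midbrain (median 219) and 161 to 309 CPM in the striatum (median 214). It was higher in PFC than midbrain in 10 of 11 mice, with a log2 fold change of 0.17 (SE 0.10, edgeR adjusted p = 0.402) and of 0.19 (SE 0.06, adjusted p = 0.0322) with the block. Rps25, the member with the next smallest p in this direction, was 0.15 (SE 0.12, adjusted p = 0.640), also higher in 10 of 11 mice. The summed level was higher in the PFC in 6 of 11 mice (mean log2 ratio 0.08, SD 0.25), and the mitochondrially encoded genes were higher in 10 of 11 mice.

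To ask whether sex changed the members, females were compared with males over all regions. The study's rule for sex asks for a p under 0.05, without adjustment, and a fold change over 1.2, and it called 0 of 78 members against 4.13% of all genes. Without a minimum on the fold it was still 0, against 8.02% of all genes, and DESeq2 picked 0 as well. The lowest adjusted p of a member was 0.763. The median log2 fold change of females over males was -0.10, with 77 members below 0 against 50.8% of all genes. Without mouse 5, the male with the highest levels, the median was 0.01.

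The largest difference was that of Rpl39l (ENSMUSG00000039209, chr16:10170226-10174911, plus strand), at 0.853 ± 0.611 CPM in females (0.271 to 2.46, median 0.660) and 1.26 ± 0.988 CPM in males (0.214 to 3.82, median 0.859). The ranges lay within one another, and the log2 fold change was -0.56 (SE 0.35, edgeR adjusted p = 0.763). At this level one sample's value rests on as few as 11 counts. Rpl13 was 253 ± 45.6 CPM in females and 278 ± 82.9 CPM in males, a log2 fold change of -0.14 (SE 0.11, adjusted p = 0.866). Rps27l was the one member above 0, at 0.02. The 4 X-linked members, of which one copy is silenced in female cells, were -0.05 for Rpl10, -0.14 for Rpl36a, -0.16 for Rpl39 and -0.14 for Rps4x, with adjusted p of 0.927 to 0.984.

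The direction of the sex difference was not the same in the 2 sets of mice. In mice 1 to 6 alone all 78 members were lower in females, with a median log2 fold change of -0.28, and the study's unadjusted rule called 45 of them, against 5.25% of all genes in either direction. The lowest adjusted p there was 0.391, and the comparison rests on 3 mice per sex whose samples are counted as independent. In mice 7 to 12 alone 76 members were higher in females (median 0.09) and 0 were called. With counts summed per mouse, 6 against 6, the median was -0.12 and 0 members were called, against 3.10% of all genes. No member showed an interaction of region and sex, and no gene of the table did at an adjusted p under 0.05 (0.00% of all genes). At an unadjusted p under 0.05 there were 0 members in edgeR and in DESeq2, against 2.98% of all genes, and the members' p ran from 0.473 to 0.996.

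Genes that work with ribosomal proteins were read from lists. Of the 7 genes outside the symbol rule, 0 had a main effect of region with sex in the model (8.89% of all genes) and 2 did with the mouse block (14.0%). At an unadjusted p under 0.05 with sex in the model, edgeR picked 1 of the 7 (21.8% of all genes). Rack1, a scaffold on the head of the small subunit, was 203 ± 41.2 CPM in the striatum, 249 ± 58.1 CPM in the PFC and 245 ± 59.3 CPM in the midbrain. With the block it fell by 0.31 on the log2 scale from PFC to striatum (SE 0.08, edgeR adjusted p = 0.0259) and by 0.25 from midbrain to striatum (SE 0.08, adjusted p = 0.0290).

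Of 16 other mRNAs with a known TOP tract, 1 had a main effect of region with sex in the model (8.89% of all genes) and 8 did with the block (14.0% of all genes), and 5 of them were lower in striatum than PFC at a block adjusted p under 0.05 (0.994% of all genes), with none higher. Eef2, which moves the ribosome along the mRNA, was 558 ± 108 CPM in the striatum and 636 ± 87.3 CPM in the PFC, a block log2 fold change of -0.24 (SE 0.05, adjusted p = 0.00904). Pabpc1, the poly(A)-binding protein, was -0.30 (SE 0.08, adjusted p = 0.0267), and Eef1a1, which delivers aminoacyl-tRNA, was -0.22 (SE 0.06, adjusted p = 0.0342). Nap1l1, a histone chaperone, was called without the block too, lower in striatum than midbrain (-0.27, adjusted p = 0.0112). The median of the 16 between striatum and PFC was -0.16, beside -0.22 for the 78 members.

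Of 23 regulators of TOP mRNA translation, 4 had a main effect of region with sex in the model (8.89% of all genes) and 6 with the block (14.0%). Eif4ebp1, the repressor that binds eIF4E until mTOR phosphorylates it, was 55.9 ± 8.95 CPM in the midbrain, 35.9 ± 4.53 CPM in the striatum and 32.4 ± 5.99 CPM in the PFC. Relative to the midbrain its log2 fold change was -0.64 in the striatum (edgeR adjusted p = 1.04e-05) and -0.79 in the PFC (adjusted p = 1.24e-07), and that of striatum over PFC was 0.15 (adjusted p = 0.553). Rheb, the GTPase that activates mTOR complex 1, was lower in striatum than midbrain, with a log2 fold change of -0.26 (edgeR adjusted p = 0.00512). With the block, Mtor (0.48, adjusted p = 0.0342) and Tsc2 (0.43, adjusted p = 0.0243) were higher in striatum than PFC, and neither passed this comparison with sex in the model (adjusted p = 0.0978 and 0.171).

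Of 36 initiation factors, 3 had a main effect of region with sex in the model, a share near the 8.89% of all genes, and 12 with the block (14.0% of all genes). Eif2s1, the alpha subunit of the factor that brings in the initiator tRNA (-0.28, edgeR adjusted p = 0.00475), Eif1a (-0.50, adjusted p = 0.00691) and Eif4a1 (-0.28, adjusted p = 0.0282) were lower in striatum than midbrain with sex in the model. Of 14 elongation and termination genes, 3 had a main effect with sex in the model and 5 with the block. Eef2k, the kinase that inhibits Eef2, was 135 ± 16.8 CPM in the midbrain, 180 ± 20.3 CPM in the striatum and 182 ± 24.2 CPM in the PFC, higher than in the midbrain by 0.41 in the striatum (adjusted p = 0.000294) and 0.43 in the PFC (adjusted p = 0.000148) on the log2 scale.

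Of 40 ribosome biogenesis genes, 5 had a main effect with sex in the model (8.89% of all genes) and 10 with the block (14.0%). In the striatum, relative to the midbrain, Gtpbp4 (-0.32, edgeR adjusted p = 0.0116), Dkc1 (-0.29, adjusted p = 0.0158) and Nmd3 (-0.28, adjusted p = 0.0268), which take part in assembly, rRNA modification and export of subunits, were lower, and Ubtf, a factor of rRNA gene transcription, was higher (0.31, adjusted p = 0.0106). None of the 14 proteasome core genes, the 78 mitochondrial ribosomal protein genes or the 7 snoRNA host genes had a main effect of region with sex in the model, and with the block 1, 2 and 0 did. At an unadjusted p under 0.05 with sex in the model, edgeR picked 0, 2 and 0 of them (21.8% of all genes).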

How the data were processed

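RNA from sorted tdTomato-positive microglia was turned into full-length cDNA (Smart-Seq HT, Nextera XT libraries, no strand mark). Per the labels and the study's methods, reads were checked with FastQC, trimmed with Trimmomatic and aligned to GRCm38 with HISAT2, and the authors deposited raw counts per Ensembl gene after removing genes of low expression. Counting tool, annotation release and treatment of multiply matching reads are not given in the sources used here. Samples were grouped by the labels. The members and lists were chosen with earlier results of these data known.

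Symbols came from the GENCODE annotation of GRCm38 (133 of 21236 genes had none). Counts were scaled with TMM factors in edgeR 4.0.16 (R 4.3.3), and CPM are TMM CPM. The log2 CPM used a prior count of 2. At 37680501 to 54131421 counts per sample, 3 counts equal 0.0554 to 0.0796 CPM, a floor that covers counting error only. Robust quasi-likelihood tests with Benjamini-Hochberg adjustment over all 21236 genes used all 35 samples, region and sex. The interaction used a mean for each of the 6 groups. Standard errors are the log2 fold change divided by the root of F. Each mouse gave 1 sample per region, so p-values without the mouse treat samples of 1 mouse as independent. The number in the sample titles was read as the mouse, and same-numbered samples were paired on that reading. Deviations from group means correlated with a median r of 0.43 in 34 same-mouse pairs (-0.17 to 0.69, 33 of them over 0.1) and -0.06 in 374 other pairs, over 8623 genes. The block fit therefore stands beside the counts of calls it changes.

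Members were named by a rule: for each comparison those with the largest change among members with an adjusted p under 0.05 (up to 4 per direction) or, where fewer than 2 passed, the 2 with the smallest p, the 5 highest and 5 lowest per exon length, X-linked members, copies, Rplp0, Rplp1, Rplp2, Rpsa, Rps6 and Rps27a. Some genes that this rule or a list holds are not reported here. Other members (such as Rps2, Rps3, Rps28, Rpl4, Rpl5, Rpl8 and Rpl35) were named after their values were seen. Up to 4 genes of each other list were named by smallest p, except Mtor and Tsc2, named after their values were seen. Alternatives were DESeq2 1.42.0, its size factors, TMM without ribosomal protein and mitochondrially encoded genes, filterByExpr (16966 genes, all 78 members kept), each mouse left out, each set of 6 mice alone, no striatum sample of mouse 3, an index of other brain cells, the mouse block and other thresholds. The block fits with a mouse or sample left out, with other TMM factors or with the adjusted p alone, and the sum with pseudogenes, were chosen after seeing the data.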

Additional observations from a re-analysis of the deposited data

How the results depend on the processing

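The number of members called was 0 in every comparison with region and sex in the model, and stayed 0 under DESeq2, its size factors, TMM factors without ribosomal protein and mitochondrially encoded genes, filterByExpr, the index of other brain cells, removal of the striatum sample of mouse 3 and, for regions, each set of 6 mice alone. The replicate block raised it to 18 for the main effect of region, 2 for striatum against midbrain and 9 for striatum against PFC. Without the striatum sample of mouse 3 the blocked counts were 19, 4 and 13, and with the reduced TMM factors 18, 2 and 11. With the block and the adjusted p alone they were 1, 5 and 12 for PFC against midbrain, striatum against midbrain and striatum against PFC. Over all fits that left out 1 mouse, with or without the block, counts ran from 0 to 42 for region, 0 to 15 for striatum against midbrain, 0 to 41 for striatum against PFC and 0 to 1 for sex (Rpl39l, without mouse 6, 7 or 9). Sex called 45 in mice 1 to 6 alone. The block changed no other call of a comparison.

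The mean log2 ratios of the summed level within mice moved by less than their SD throughout, from -0.31 to -0.20 for striatum against PFC, -0.22 to -0.07 for striatum against midbrain and 0.00 to 0.15 for PFC against midbrain. Signs changed for the median of the sex difference (0.01 without mouse 5 and 0.09 in mice 7 to 12 alone) and for 5 small differences of named members. Rpsa between PFC and midbrain was 0.0345 in mice 7 to 12 alone and -0.10 to 0.00233 with 1 mouse left out. For Rps27l, females over males were -0.0815 in mice 1 to 6 alone and -0.0730 to 0.16 with 1 mouse left out, and striatum over PFC was 0.00432 in mice 7 to 12 alone and -0.12 to 0.0160 with 1 mouse left out. Rpl13 in females over males was 0.0765 in mice 7 to 12 alone. Rpl39l in striatum over PFC was 0.47 in mice 7 to 12 alone, 0.0487 with the index of other brain cells, 0.00761 with the replicate block without the striatum sample of mouse 3, and -0.27 to 0.22 with 1 mouse left out. The causes were not tested. Depth limits Rpl39l most, with as few as 11 counts in a sample, and multiply matching reads limit the members with many pseudogene counts.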
